A study of Equus caballus with 4 samples.

Results

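The genes described here are those of glycolysis and glycogen metabolism, with the transporters that carry glucose and lactate across the membrane. A list of 37 gene symbols was matched to the gene names of the array's horse probes, and 33 of its genes were found among 24998 gene names, on 65 of 43603 probes. *PGAM1* was matched to no probe, and *SLC16A3*, *PKM2* and *PGM1* were matched only through the transcript accession and are given apart. The study compared differentiating equine satellite cells, the stem cells of skeletal muscle, with and without HMB (β-hydroxy-β-methylbutyrate), which forms from leucine in the body. The cells had been grown from the semitendinosus muscle of colts, and HMB was present for 24 h up to the 3rd day of differentiation at a dose that the labels give as 50 µg and the methods as 50 µM. Each of 4 two-colour arrays paired HMB-treated cells in Cy5 with control cells in Cy3, without a dye swap, by the sample titles and channel labels (the sample descriptions read GO-treated for the Cy5 cells on all 4), so that an effect of the dye on a probe and an effect of HMB cannot be told apart. The sources do not say which colt is on which array, and *P* values measure the spread between these 4 arrays.

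Glycolysis splits glucose to pyruvate in the cytosol and yields ATP without oxygen, and in working muscle much of the pyruvate leaves as lactate. Glycogen is the store that muscle fills from glucose through UDP-glucose and empties through glycogen phosphorylase. Many of the enzymes exist as isoforms from separate genes, and as myoblasts fuse into myotubes a muscle form takes the place of, or joins, a form found in most cells.

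Of the 33 genes, 30 had a probe bright enough to be tested, and 8 of these (26.7%) were lower in HMB-treated cells at an adjusted *P* of at most 0.05, while 0 were higher. Over all 15614 genes tested, 22.4% passed, with 11.6% lower and 10.9% higher. The share of members that passed was therefore near that of all genes, while all 8 lay on the lower side. At an unadjusted *P* under 0.05 in limma, 8 members were lower and 3 higher, and limma on separate channels called 2 higher with the array as block and 0 without. The 8 genes were *PGAM2*, *PPP1R3C*, *ENO3*, *PYGL*, *PGK1*, *ALDOA*, *GPI* and *PFKM*, from the most to the least negative mean log2 ratio of HMB-treated over control. They spread over glycolysis and glycogen metabolism, with 3 of 10 tested genes of upper glycolysis, 3 of 8 of lower glycolysis, 1 of 5 of glycogen synthesis, 1 of 5 of glycogen breakdown and 0 of 2 transporters. The direction of some of them depended on the dye normalisation. When lowess was left out and each array's median log ratio alone was set to 0, the median of all genes moved to 0.13, from 0.018 with lowess, and 13 members were higher and 2 lower, so the split between directions rests on that step. *PGAM2*, *PPP1R3C*, *ENO3* and *PFKM* had a negative mean under every alternative tried, and the other 4 did not. Those 4 were the brighter genes, with control signals on array 1 of 109294 (*ALDOA*), 65736 (*PGK1*), 33863 (*GPI*) and 11052 (*PYGL*). The signals were 5156 for *PGAM2*, 576 for *ENO3*, 481 for *PFKM* and 126 for *PPP1R3C*. Lowess adjusts ratios by signal level, and the part of signal level in these shifts was not tested.

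**Figure D1:**
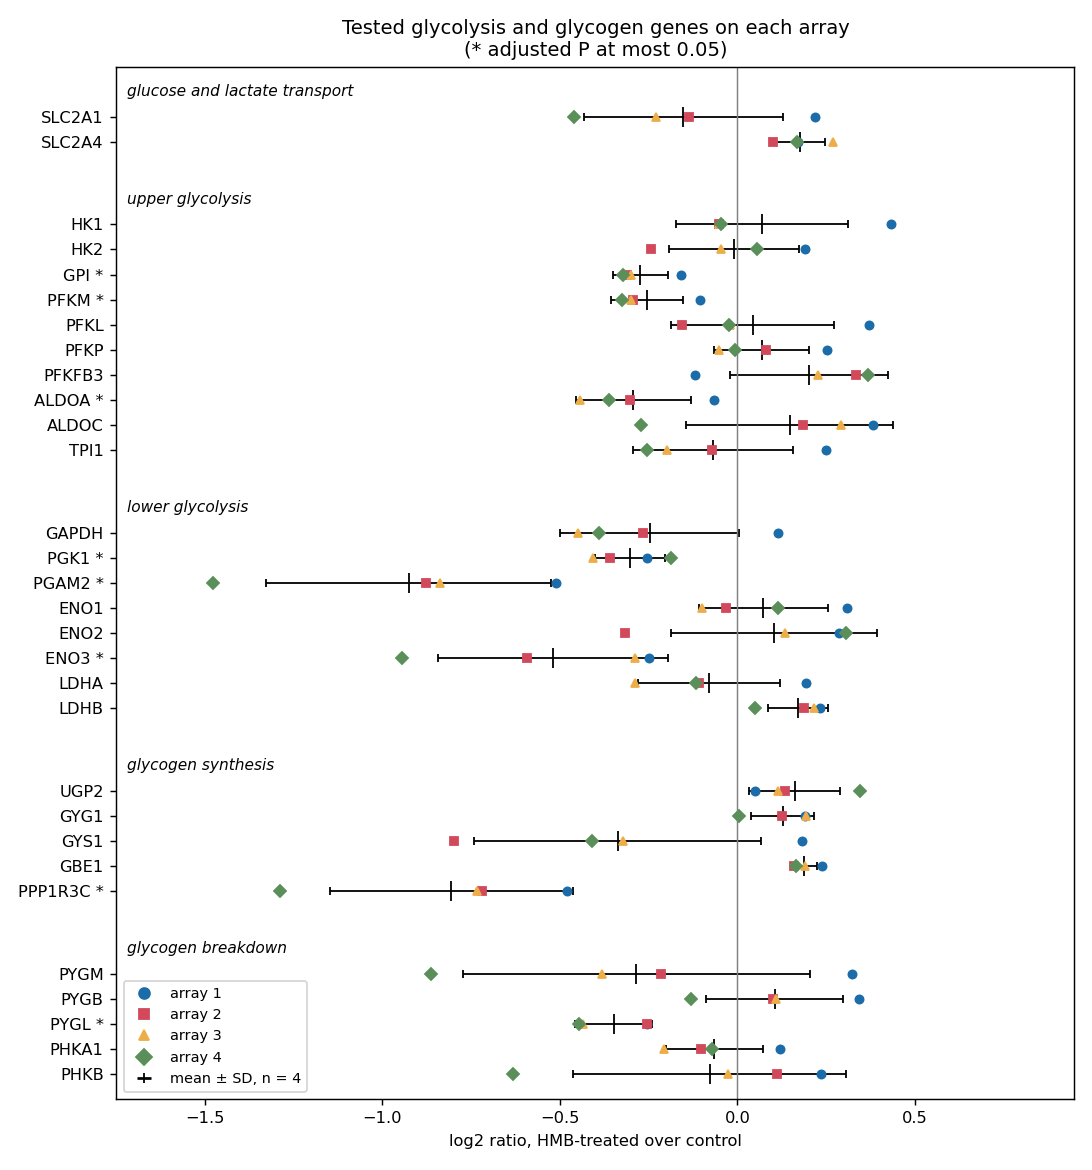
Log2 ratio of HMB-treated over control for the 30 tested genes on each of the 4 arrays (coloured symbols), with the mean and SD (black), grouped by role. All 8 genes marked with an asterisk lie left of 0 on every array, though *GPI*, *ALDOA*, *PGK1* and *PYGL* had means above 0 without lowess, and array 1 (blue circles) gave the highest value for 23 of the 30 genes.

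The cells carried the markers of the labelled type, since 10 of the 14 listed markers of satellite cells and myotubes were on the array by symbol, *PAX7* not among them, and all 10 were well above background in both channels on every array. All 10 were also lower with HMB, and without lowess 7 passed as lower and all 10 means stayed below 0 (median -0.45). As reported they had a median log2 ratio of -0.94 and per-array medians of -0.45, -0.84, -1.07 and -1.29. Their summed processed signals on arrays 1 to 4 were 199378, 200739, 215669 and 228255 in control cells and 146916, 101559, 93447 and 85401 in HMB-treated cells. Of 9 fibroblast markers 7 were tested, 2 were higher (*PDGFRA* by 1.53 and *FAP* by 0.42 on the log2 scale) and 0 lower. The other 5 did not pass, with *DPT* (0.20), *DCN* (0.15) and *LUM* (0.0071) above 0 and *THY1* (-0.10) and *COL3A1* (-0.21) below. The median of the 7 was 0.15. With normexp and loess 3 of the 7 were higher and 0 lower, and the highest mean of the list was 0.89. Without lowess 6 were higher and 0 lower, and the highest mean was 1.08. The list's summed signals were 185691, 180847, 194884 and 246021 in control and 236487, 178077, 184216 and 183867 in HMB-treated cells. Both tested leukocyte markers of 7 listed, *CD14* and *CD68*, passed in neither direction, though without lowess 1 was higher, with summed signals of 5525, 4979, 4837 and 5634 in control and 6342, 5121, 4829 and 4990 in HMB-treated cells. The 5 adipocyte and 5 endothelial markers on the array were all too dim to be tested. In bulk RNA, fewer cells of a type and less RNA per cell cannot be told apart, and the part that the makeup of the cultures had in the values of the glycolytic genes was not tested.

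The probes of 5 called genes and of *LDHB* are shown because each is the only or the brightest tested probe behind its gene's values. They are 60 bases long and run 5′ to 3′ along the transcript. Capitals mark the longest run that the probe shares with a probe named for another gene or for none, which was 17 bases for *PGAM2* and 12 to 14 bases for the others.
PGAM2: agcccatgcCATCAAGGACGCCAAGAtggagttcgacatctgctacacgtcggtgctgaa
ENO3: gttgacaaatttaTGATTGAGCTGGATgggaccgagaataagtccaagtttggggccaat
PFKM: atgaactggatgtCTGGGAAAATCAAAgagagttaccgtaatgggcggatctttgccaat
PYGL: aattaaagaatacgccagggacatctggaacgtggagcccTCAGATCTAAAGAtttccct
PPP1R3C: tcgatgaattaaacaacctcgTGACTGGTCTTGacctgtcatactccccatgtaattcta
LDHB: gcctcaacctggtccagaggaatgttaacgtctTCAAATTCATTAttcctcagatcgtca
In the horse assembly EquCab1 that the array files name, the *PGAM2* probe lies at chr4:14917699-14917758 on the minus strand, that of *PYGL* at chr1:178466926-178466985 on the minus strand and that of *LDHB* at chr6:48042583-48042642 on the minus strand. The *PPP1R3C* probe lies at chr1:36396816-36396875 on the plus strand. The *ENO3* probe spans chr11:48376684-48377140 on the minus strand (457 bases) and the *PFKM* probe chr6:65875804-65875944 on the plus strand (141 bases), so both cross at least 1 intron. Each probe is open in at least 1 reading frame, and the exon annotation of that assembly was not used here.

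The transporters did not pass the test by symbol. *SLC2A4*, which encodes the insulin-responsive glucose transporter GLUT4 of muscle and fat, gave log2 ratios of 0.17, 0.10, 0.27 and 0.17 on arrays 1 to 4. All 4 values lay above 0, with a mean of 0.18 ± 0.069 (SD, n = 4, adjusted P = 0.0834) that shrank to 0.051 with normexp and loess and 0.055 without lowess. *SLC2A1*, for the general glucose transporter GLUT1, gave 0.22, -0.14, -0.23 and -0.46, above 0 on array 1 and below it on the other arrays (mean -0.15 ± 0.28 SD, n = 4, adjusted P = 0.360). Its other probe had a mean of 0.10, so the 2 probes differed in sign. *SLC2A3*, for the high-affinity transporter GLUT3, was well above background on 0 arrays in control cells and 1 in HMB-treated cells and was not tested. *SLC16A3*, found through its accession, encodes MCT4, the monocarboxylate transporter that exports lactate from glycolytic muscle. Its ratios were -0.20, -0.47, -0.42 and -0.39, lower on every array (mean -0.37 ± 0.12 SD, n = 4, adjusted P = 0.0153), and without lowess its mean was -0.22 and it no longer passed.

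Glucose is trapped in the cell by hexokinase. *HK2*, the insulin-regulated muscle form, gave 0.19, -0.24, -0.045 and 0.056 on arrays 1 to 4 and *HK1*, the form of most tissues, 0.43, -0.053, -0.053 and -0.046. Neither passed (*HK2* mean -0.0098 ± 0.18 SD, n = 4, adjusted P = 0.943, *HK1* mean 0.071 ± 0.24 SD, n = 4, adjusted P = 0.642), and the mean of *HK1* rested on array 1, since the other arrays gave almost the same value just below 0. *GPI* encodes the isomerase that turns glucose 6-phosphate into fructose 6-phosphate. Its brightest probe gave -0.16, -0.31, -0.30 and -0.32, with array 1 the least negative. The mean was -0.27 ± 0.077 (SD, n = 4, adjusted P = 0.0266), or 1.21-fold lower, and 2 of its 4 probes passed, but without lowess it passed as higher, at 0.40.

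Phosphofructokinase commits sugar to glycolysis and has muscle (*PFKM*), liver (*PFKL*) and platelet (*PFKP*) forms. *PFKM* gave -0.10, -0.29, -0.30 and -0.32, below 0 on all arrays, with a mean of -0.26 ± 0.10 (SD, n = 4, adjusted P = 0.0387), or 1.19-fold lower, but without lowess it was at -0.084 and no longer passed. *PFKL* gave 0.37, -0.16, -0.020 and -0.024 and *PFKP* 0.25, 0.080, -0.053 and -0.0066. Both were clearly positive on array 1 only, and neither passed (adjusted P = 0.775 and 0.528 in limma). Within every array the ratio of *PFKM* was below that of both other forms. *PFKFB3*, whose product makes fructose 2,6-bisphosphate, the activator of phosphofructokinase, gave -0.12, 0.33, 0.23 and 0.37. It was the reverse of its neighbours, with array 1 below 0 and the other arrays above (mean 0.20 ± 0.22 SD, n = 4, adjusted P = 0.170). Without array 1 it passed as higher, at 0.31, but its mean over all arrays was 0.061 with normexp and loess and 0.040 without lowess. *FBP2*, for the muscle fructose bisphosphatase that runs the step backwards, was well above background on 2 arrays in each channel and was not tested.

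Aldolase splits the hexose bisphosphate into trioses. *ALDOA*, the aldolase of muscle and most cells, gave -0.067, -0.30, -0.44 and -0.36, all below 0 (mean -0.29 ± 0.16 SD, n = 4, adjusted P = 0.0429) but higher past the threshold without lowess, at 0.82, while *ALDOC*, the aldolase best known from brain, gave 0.38, 0.18, 0.29 and -0.27, above 0 on all arrays but the 4th (mean 0.15 ± 0.29 SD, n = 4, adjusted P = 0.387). The call of *ALDOA* held for 1 of its 5 probes, which are shifted against each other by 1 base, and their means ran from -0.29 to -0.15. With normexp background correction and loess its mean was 0.039. *TPI1*, for the triose phosphate isomerase, gave 0.25, -0.072, -0.20 and -0.26 and did not pass (mean -0.069 ± 0.23 SD, n = 4, adjusted P = 0.634).

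*GAPDH*, which oxidises the triose, was the reference gene for the quantitative PCR of the paper. It had 13 tested probes at 3 sites of its transcript, starting at bases 167 to 171, 460 and 942 to 947. The outer probes of the last site are shown because they share most of their sequence yet differ in ratio, and capitals mark the 55 bases that all 7 probes of that site have in common.
GAPDH from base 942: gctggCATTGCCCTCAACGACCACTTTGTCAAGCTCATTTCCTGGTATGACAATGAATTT
GAPDH from base 947: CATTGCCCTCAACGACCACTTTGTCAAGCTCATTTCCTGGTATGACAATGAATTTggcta
These probes lie at chr6:34317634-34317799 and chr6:34317639-34317804 on the plus strand of EquCab1, each across at least 1 intron. The brightest of the 13 probes, 1 of 2 with the first sequence, gave 0.12, -0.27, -0.45 and -0.39 on arrays 1 to 4, and the other probe of the same sequence 0.15, -0.14, -0.38 and -0.36. The probe from base 947 gave 0.25, -0.031, -0.13 and -0.18. All 3 were above 0 on array 1 and below 0 on the other arrays. Over the 13 probes the means ran from -0.25 to -0.013 and 0 passed. The brightest had a mean of -0.25 ± 0.25 (SD, n = 4, adjusted P = 0.133), it passed as lower without array 1, at -0.37, and its mean was 0.090 with normexp and loess and 0.88 without lowess.

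**Figure D2:**
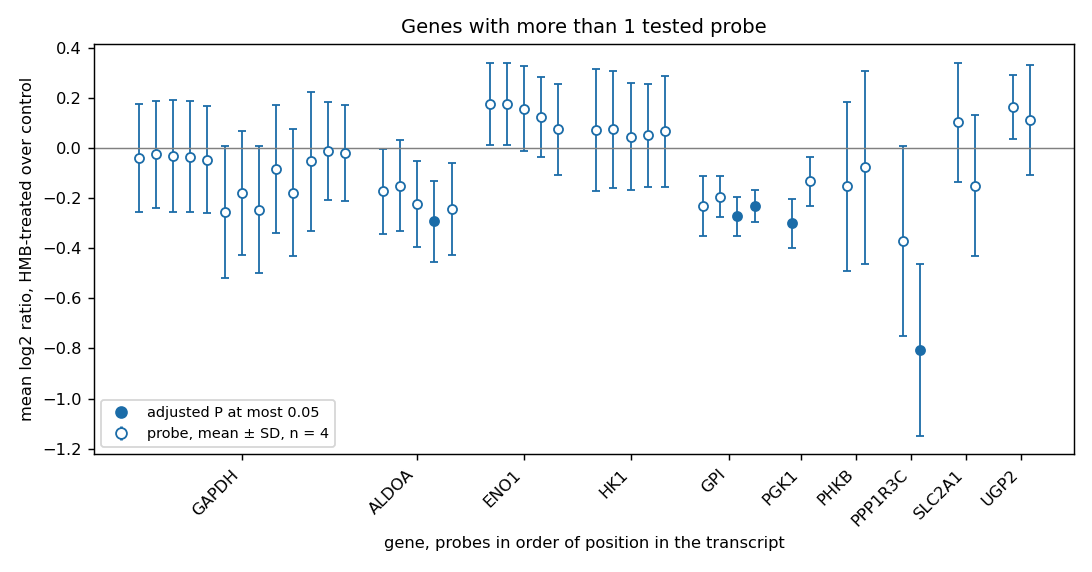
Mean log2 ratio over 4 arrays (circles) with SD (bars) for every tested probe of the 10 member genes with more than 1, in order of position in the transcript, filled where the adjusted P was at most 0.05. The 13 *GAPDH* probes are all open circles between -0.25 and -0.013, where the brightest was at 0.88 without lowess, and the probes of *SLC2A1* lie on both sides of 0.

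*PGK1* encodes the kinase of the first ATP-yielding step. Its brighter probe gave -0.25, -0.36, -0.41 and -0.19, below 0 on all arrays, but without lowess it passed as higher, at 0.60, and with normexp and loess it shrank to -0.097 and did not pass. As reported the mean was -0.30 ± 0.099 (SD, n = 4, adjusted P = 0.0235), or 1.23-fold lower. The second probe had a mean of -0.13 and did not pass.

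*PGAM2*, the muscle form of phosphoglycerate mutase, had the most negative mean of the 30 tested members. Its single probe gave -0.51, -0.88, -0.84 and -1.48 on arrays 1 to 4. Every array was lower, array 1 least and array 4 most, and the mean was -0.93 ± 0.40 (SD, n = 4, adjusted P = 0.0100), or 1.90-fold lower in HMB-treated cells, and -0.65 without lowess. It still passed whichever 1 array was left out, as did *PPP1R3C*, but neither passed when dim probes were tested too.

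Enolase has a general form (*ENO1*), a muscle form (*ENO3*) and a form of neurons (*ENO2*). *ENO3* gave -0.25, -0.59, -0.29 and -0.95, negative throughout and most so on array 4, with a mean of -0.52 ± 0.32 (SD, n = 4, adjusted P = 0.0308), or 1.43-fold lower, but it no longer passed without lowess, at -0.31, or with separate channels. *ENO1* gave 0.31, -0.031, -0.10 and 0.11 and *ENO2* 0.29, -0.32, 0.13 and 0.31. Both had values on either side of 0 and neither passed (adjusted P = 0.558 and 0.546 in limma), though *ENO1* passed as higher with normexp and loess, at 0.41, and without lowess, at 1.21. The pyruvate kinase *PKM2*, found through its accession, gave 0.65, -0.12, -0.10 and -0.13. Its array 1 stood far above the other arrays, which were alike (mean 0.075 ± 0.38 SD, n = 4, adjusted P = 0.732), and without lowess it passed as higher, at 0.49.

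Lactate dehydrogenase is a tetramer of A and B subunits, the A subunit predominating in fast muscle and the B subunit in heart. *LDHA* gave 0.19, -0.11, -0.29 and -0.12, above 0 on array 1 only (mean -0.080 ± 0.20 SD, n = 4, adjusted P = 0.546). *LDHB* gave 0.23, 0.19, 0.22 and 0.049, above 0 on all arrays, and missed the threshold with a mean of 0.17 ± 0.084 (SD, n = 4, adjusted P = 0.0985). It passed as higher with separate channels and the array as block, at 0.17, and without lowess, at 0.61.

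Glycogen synthesis starts from glucose 1-phosphate. *PGM1*, found through its accession, encodes the phosphoglucomutase that makes it and gave 0.45, 0.10, 0.27 and 0.20, positive on every array without passing (mean 0.25 ± 0.15 SD, n = 4, adjusted P = 0.0571), and without lowess it passed as higher, at 0.45. *UGP2*, for the enzyme that makes UDP-glucose, gave 0.051, 0.13, 0.12 and 0.34 (mean 0.16 ± 0.13 SD, n = 4, adjusted P = 0.150), and *GYG1*, for the glycogenin primer, 0.19, 0.12, 0.19 and 0.0043 (mean 0.13 ± 0.088 SD, n = 4, adjusted P = 0.193). All of these values lay above 0 and neither gene passed. *GBE1*, for the branching enzyme, gave 0.24, 0.16, 0.19 and 0.16, the narrowest spread among the 30 tested members. Its mean of 0.19 ± 0.036 (SD, n = 4, adjusted P = 0.0609) missed the threshold. *GBE1* passed with separate channels and the array as block and with no filter on dim probes, but shrank to 0.11 with normexp and loess without passing.

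*GYS1*, the glycogen synthase of muscle, gave 0.18, -0.80, -0.32 and -0.41, above 0 on array 1 and below it on the others. It was well above background on 4 arrays in control cells and on 2 in HMB-treated cells and did not pass (mean -0.34 ± 0.40 SD, n = 4, adjusted P = 0.151). Though it passed as lower without array 1, at -0.51, its HMB-treated signal was too dim for that size to be measured. Without array 2 its mean was -0.18 and it did not pass, and the mean over all arrays was -0.15 with normexp and loess. *PPP1R3C* encodes PTG, a scaffold that brings protein phosphatase 1 to glycogen, where it activates the synthase and inactivates the phosphorylase. Its brighter probe gave -0.48, -0.72, -0.73 and -1.29. All arrays were lower, array 1 least and array 4 most, as with *PGAM2*. The mean was -0.81 ± 0.34 (SD, n = 4, adjusted P = 0.0101), or 1.75-fold lower, and shrank to -0.56 with normexp and loess and -0.50 without lowess, and the second probe, further from the end of the transcript, had a mean of -0.37 without passing.

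Glycogen phosphorylase frees glucose 1-phosphate and has muscle (*PYGM*), brain (*PYGB*) and liver (*PYGL*) forms. *PYGL* gave -0.26, -0.26, -0.44 and -0.45, below 0 on all arrays, with a mean of -0.35 ± 0.11 (SD, n = 4, adjusted P = 0.0170), or 1.27-fold lower, but without lowess its mean was 0.012. *PYGM* gave 0.32, -0.22, -0.38 and -0.86, and its HMB-treated channel was well above background on 3 of 4 arrays. Array 1 was above 0 and array 4 far below, and the spread was the widest of all tested members (mean -0.28 ± 0.49 SD, n = 4, adjusted P = 0.284), with a mean of -0.096 with normexp and loess. The mean of *PYGM* was -0.49 without array 1 and -0.091 without array 4. *PYGB* gave 0.34, 0.10, 0.11 and -0.13 and did not pass (mean 0.11 ± 0.19 SD, n = 4, adjusted P = 0.413). Of the subunits of phosphorylase kinase, which switches the phosphorylase on, *PHKA1* gave 0.12, -0.10, -0.21 and -0.071 and *PHKB* 0.24, 0.11, -0.026 and -0.63. Neither passed (adjusted P = 0.550 and 0.726 in limma), and *PHKG1*, the catalytic subunit of muscle, was not well above background on any array in either channel.

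The muscle isoforms were compared with the general ones as groups and as pairs. Those tested as muscle isoforms were *SLC2A4*, *HK2*, *PFKM*, *PGAM2*, *ENO3*, *GYS1*, *PYGM* and *PHKA1*. Those tested as general isoforms were *SLC2A1*, *HK1*, *PFKL*, *PFKP*, *ALDOC*, *ENO1*, *ENO2*, *LDHB*, *PYGB* and *PYGL*. The label general therefore includes forms described above as those of neurons, brain, liver, platelets or heart. Over the arrays 1 to 4 the median log2 ratio of the 8 tested muscle isoforms was 0.15, -0.27, -0.29 and -0.37. For the 10 tested general isoforms it was 0.30, -0.042, -0.036 and -0.035, for the 12 other members 0.083, -0.089, -0.24 and -0.22, and for all genes 0.013, 0.0071, 0.028 and 0.0097. The muscle isoforms lay below the general isoforms on all 4 arrays, by a mean difference of medians of -0.24 ± 0.074 (SD, n = 4), while both groups were highest on array 1. Of the muscle isoforms 3 of 8 passed as lower and of the general isoforms 1 of 10, against 11.6% of all genes, and the difference between these counts was not tested. *SLC2A4* was the only 1 of the 8 tested muscle isoforms with a mean above 0 as reported. Without lowess *HK1* (0.39), *PFKP* (0.41), *ALDOC* (0.33), *TPI1* (0.56), *LDHA* (0.58), *UGP2* (0.44) and *GYG1* (0.32) passed as higher, as did *GAPDH*, *ENO1*, *LDHB* and, against their calls as reported, *GPI*, *ALDOA* and *PGK1*. The means of *HK2*, *TPI1*, *LDHA*, *PHKA1* and *PHKB* below 0 and that of *ENO2* above 0 changed sign without lowess, as did that of *PFKL* with normexp and loess, the median of the muscle isoforms shrank from -0.20 to -0.084, and that of the other members turned to 0.43 without lowess. Signs also changed for *HK1* (-0.051), *PFKL* (-0.067) and *ENO1* (-0.0057) without array 1, *HK2* without array 2 (0.068) or 3 (0.0020) and *PHKB* without array 4 (0.11).

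In 10 of 12 isoform pairs both genes were tested, and in 7 of the 10 the first named gene had the lower ratio on every array. *PFKM* and *ENO3* recur among these pairs, so the 7 are not separate results. *ALDOA* and *LDHA*, also first named, were counted above as other members and not as muscle isoforms. The share among pairs of other genes was not computed. *ENO3* minus *ENO1* was -0.56, -0.56, -0.19 and -1.06 on arrays 1 to 4 (-0.59 ± 0.36, mean ± SD) and *ENO3* minus *ENO2* -0.54, -0.28, -0.42 and -1.25 (-0.62 ± 0.43). *PFKM* minus *PFKL* was -0.48, -0.14, -0.28 and -0.30 (-0.30 ± 0.14) and *PFKM* minus *PFKP* -0.36, -0.37, -0.25 and -0.32 (-0.32 ± 0.056), the latter almost the same on all arrays. These 4 mean differences stayed below 0 under every alternative tried. *PFKM* minus *PFKL* kept its size without lowess, at -0.30, and was -0.24 with normexp and loess. The size of the others did not hold, and without lowess *ENO3* minus *ENO1* was -1.51, *ENO3* minus *ENO2* -0.28 and *PFKM* minus *PFKP* -0.49. *PYGM* minus *PYGB* was -0.021, -0.32, -0.49 and -0.73 (-0.39 ± 0.30), near 0 on array 1, wider on the others and -0.15 with normexp and loess, and *LDHA* minus *LDHB* was -0.040, -0.29, -0.51 and -0.17 (-0.25 ± 0.20), or -0.14 with normexp and loess and -0.034 without lowess. *ALDOA* minus *ALDOC* was -0.45, -0.49, -0.74 and -0.089 (-0.44 ± 0.27), but shrank to -0.069 with normexp and loess and turned to 0.49 without lowess. Each of these 7 differences had the smallest *P* that an exact two-sided sign-flip test of 4 arrays can give, which is above 0.05, and an adjusted P = 0.179 over the 10 pairs in that exact test. The pairs without a common direction were *HK2* minus *HK1* (-0.080 ± 0.16, and -0.28 without lowess), *PYGM* minus *PYGL* (0.064 ± 0.41) and *SLC2A4* minus *SLC2A1* (0.33 ± 0.30, and 0.17 without lowess), the last positive on 3 of 4 arrays. *PYGM* minus *PYGL* was -0.25 without lowess and -0.11 without array 1, but 0.32 with normexp and loess and 0.22 without array 4.

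**Figure D3:**
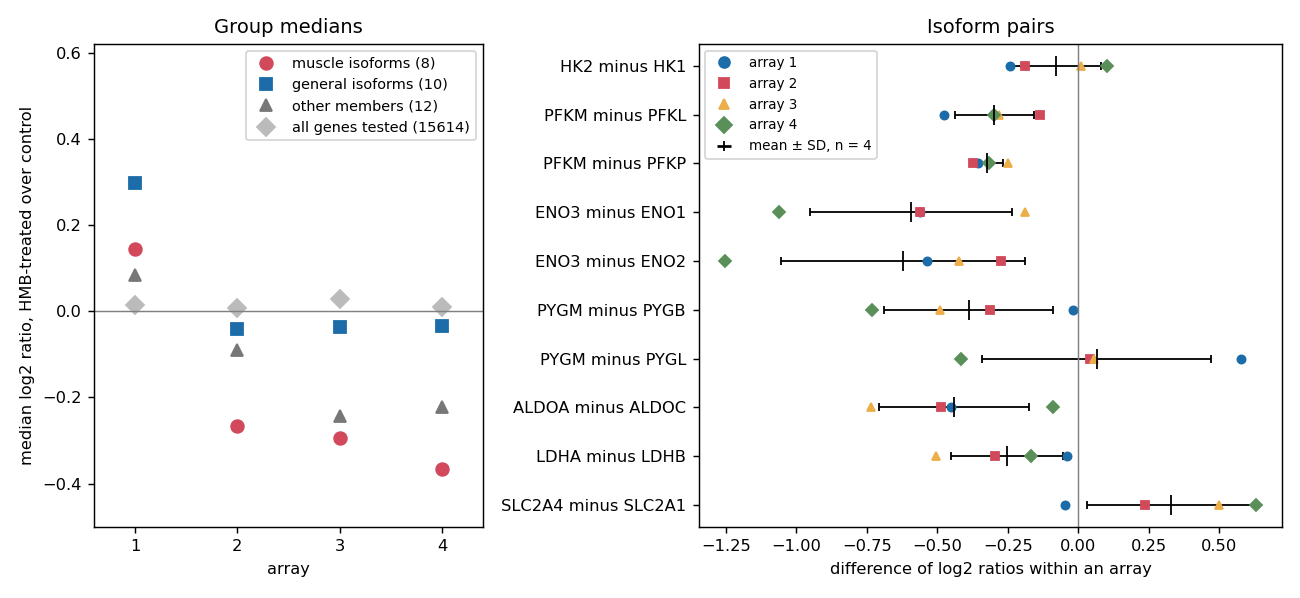
Left, the median log2 ratio of the muscle isoforms, general isoforms, other members and all tested genes on each array. Right, the difference of log2 ratios within an array for 10 isoform pairs (coloured symbols, with mean and SD in black), of which 7 lie left of 0 on every array.

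Array 1 stood apart for these genes. It gave the highest ratio of the 4 arrays for 23 of the 30 tested members (76.7%), against 34% of all tested genes, and the lowest for 2. Among the 22 members that did not pass, 12 were above 0 on array 1 and below 0 on the mean of the other arrays. The matching share over all genes was not computed, and genes of mixed sign are less likely to pass, so this count does not set the members apart. The markers of satellite cells and myotubes were also least negative on array 1, where their median was -0.45, and the part of this in the members' values was not tested. Without array 1 the 8 calls remained and *GAPDH*, *GYS1* and *PFKFB3* were added.

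Leaving out array 2 or array 3 kept only *PGAM2* and *PPP1R3C* among the 8 calls. *PGAM2* then had means of -0.94 and -0.96 and *PPP1R3C* of -0.83 and -0.83. *ENO3* kept its size, at -0.50 and -0.60. *PYGL* was at -0.38 and -0.32, *PGK1* at -0.28 and -0.27, *ALDOA* at -0.29 and -0.24, *GPI* at -0.26 and -0.26 and *PFKM* at -0.24 and -0.24. Without array 4, 5 of the 8 calls remained, *ALDOA* (-0.27), *GPI* (-0.26) and *PFKM* (-0.23) no longer passed, and *ALDOC* passed as higher, at 0.29. Among the other choices, separate channels without block lost *ALDOA*, *ENO3*, *GPI* and *PFKM*, the block lost *ENO3*, the mean of a gene's probes lost *ALDOA* (-0.22) and *PGK1* (-0.22), and testing dim probes too lost *ALDOA*, *ENO3*, *PFKM*, *PGAM2* and *PPP1R3C*. Over all genes the fits without 1 array called fewer too, 8.97% without array 2 and 9.61% without array 3.

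**Figure D4:**
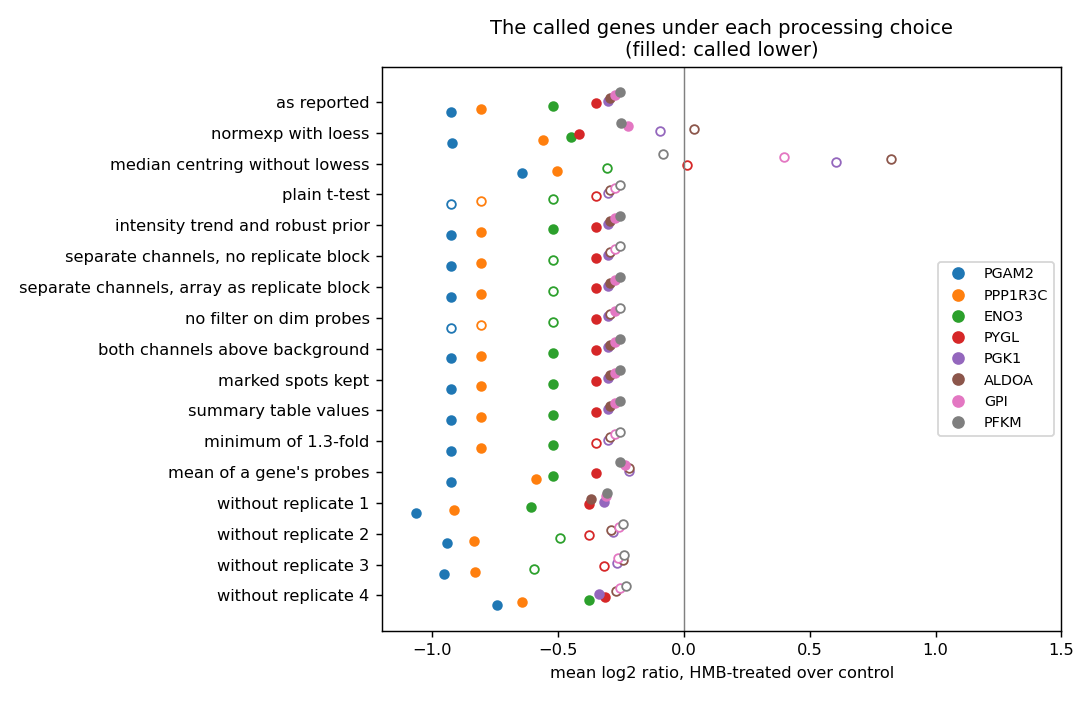
Mean log2 ratio of the 8 called genes as reported and under 16 of the 17 other processing choices (matching by accession, which left these values as they were, is not drawn), filled where the gene was still called lower. *PGAM2* and *PPP1R3C* stay left of the others in every row, and *ALDOA*, *PGK1*, *GPI* and, by 0.012, *PYGL* move right of 0 without lowess.

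The neighbouring pathways were described from lists of other genes. Of 118 such genes 75 were tested, 10 were higher and 10 lower (26.7% called, near the 22.4% of all genes), and their median of 0.017 was close to that of all genes (0.018). Among 8 other glycolytic genes the glycerol phosphate dehydrogenases *GPD1* (-0.77, -0.60, -0.86 and -0.72, adjusted P = 0.00202 in limma) and *GPD2* (adjusted P = 0.00544 in limma) were counted as lower and 0 as higher. Both were tested through the control channel, since the HMB-treated channel was well above background on 2 arrays for *GPD1* and on 0 for *GPD2*, so the size of neither change is settled here, and the mean was -0.29 with normexp and loess and -0.41 without lowess for *GPD1* and -0.31 with normexp and loess and -0.46 without lowess for *GPD2*. Among 14 other glycogen genes *PPP1R1A*, an inhibitor of protein phosphatase 1, was lower (-0.71, -0.80, -0.57 and -0.98), and *PHKA2* (0.29) and the phosphatase subunit *PPP1CC* (0.26) were higher. Among 9 other transport genes the fructose transporter *SLC2A5* was lower (-0.54, -0.68, -0.41 and -0.62), and *SLC2A11*, also tested through the control channel, was counted as lower (adjusted P = 0.0147) with HMB-treated cells above background on 0 arrays, and *SLC2A9* was higher (0.58, 0.55, 0.41 and 0.46). With normexp and loess *SLC2A11* was at -0.24 and no longer passed, and without lowess it was at -0.39. *SLC2A5* shrank to -0.32 with normexp and loess and -0.36 without lowess and *PPP1R1A* to -0.50 with normexp and loess and -0.45 without lowess, *SLC2A9* was 0.37 with normexp and loess and 0.45 without lowess, and *PPP1CC* 0.21 with normexp and loess and 0.51 without lowess. *PHKA2* passed under neither other dye normalisation, at 0.17 with normexp and loess and 0.11 without lowess. It also did not pass with the prior that was robust and followed intensity, or with separate channels with or without the block. Calls were also lost for *PHKA2* without array 2 (0.31), 3 (0.27) or 4 (0.24), and for *PPP1CC* without array 1 (0.23), 2 (0.27) or 3 (0.27).

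In the pentose phosphate pathway, which makes NADPH and ribose phosphate from sugar, *TKT*, for transketolase, gave 0.45, 0.30, 0.32 and 0.28 (mean 0.34 ± 0.076 SD, n = 4, adjusted P = 0.0147) and *RPIA*, for the ribose phosphate isomerase, 0.31, 0.30, 0.33 and 0.26 (mean 0.30 ± 0.029 SD, n = 4, adjusted P = 0.0169). Both were higher on every array, and the difference from the glycolytic genes was not tested. In the same pathway *PGD* (0.23), *PGLS* (0.093), *RPE* (0.036) and *TALDO1* (-0.076) did not pass, and *TALDO1* was below 0 on every array. *GFPT2*, for the entry enzyme of the hexosamine pathway, was the 1 higher gene of 6 tested there (0.59, 0.35, 0.24 and 0.73), and 0 of 3 gluconeogenic genes passed. Of 19 regulators 4 were lower, *PRKAA2* (-0.54), a catalytic subunit of AMP-activated kinase, *FOXO1* (-0.46), *SIX4* (-0.42) and *MLX* (-0.28), and 2 higher, the glucose-sensing factor *MLXIPL* (0.61) and *EPAS1* (0.45). *HIF1A*, the hypoxia factor that drives many glycolytic genes, gave 0.34, 0.0016, -0.077 and -1.27 and did not pass, and of 9 other hypoxia-induced genes *NDRG1* was higher (0.27) and *EGLN3* lower (-0.22). *MLXIPL* shrank to 0.16 with normexp and loess and 0.089 without lowess and *EPAS1* to 0.22 and 0.23, and neither then passed. *PRKAA2* shrank to -0.32 with normexp and loess and -0.31 without lowess, while without lowess *TKT* was 0.65, *RPIA* 0.45, *GFPT2* 0.62 and *NDRG1* 0.34. Without lowess *FOXO1* (-0.27), *SIX4* (-0.24), *MLX* (-0.11) and *EGLN3* (-0.11) no longer passed either. Leaving out 1 array also undid calls, for *TKT* without array 2 (0.35) or 3 (0.34), *RPIA* without array 2 (0.30) or 3 (0.29), *GFPT2* without array 1 (0.44) or 2 (0.52), *FOXO1* without array 2 (-0.40) or 3 (-0.45), *SIX4* without array 2 (-0.42) or 3 (-0.43), *MLX* without array 1 (-0.32), 2 (-0.32), 3 (-0.28) or 4 (-0.21), *EPAS1* without array 1 (0.38), 2 (0.50) or 4 (0.37), *EGLN3* without array 1 (-0.21), 2 (-0.26), 3 (-0.19) or 4 (-0.24) and *NDRG1* without array 1 (0.27), 2 (0.24), 3 (0.33) or 4 (0.25).

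**Figure D5:**
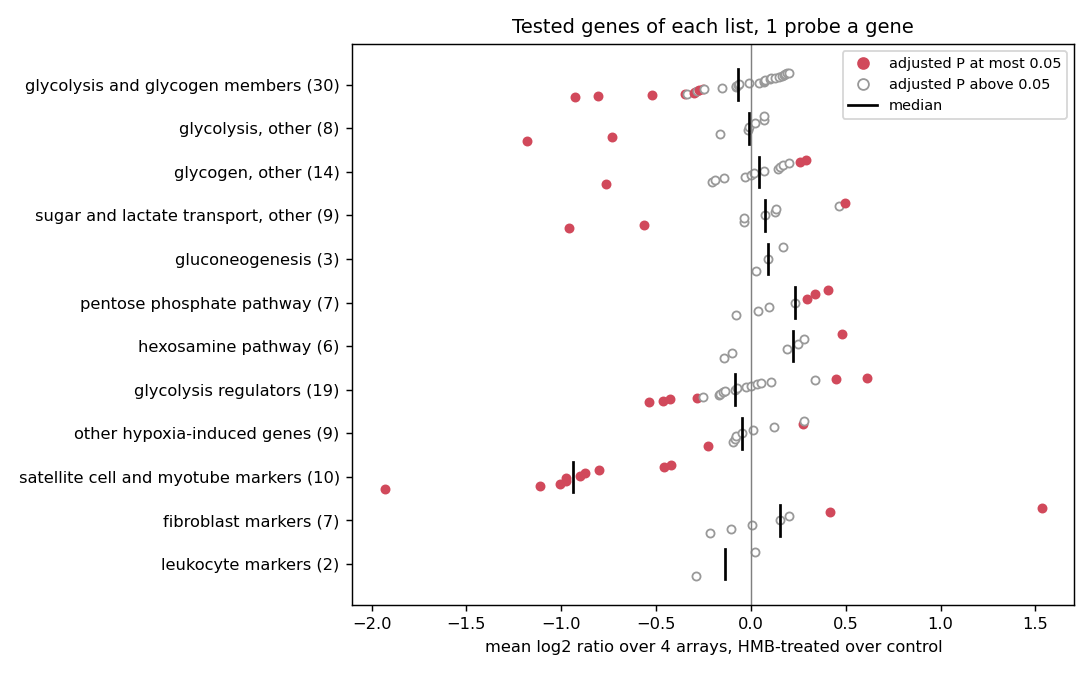
Mean log2 ratio over 4 arrays of each tested gene (circles, filled red where the adjusted P was at most 0.05) and the median of each list (black line), with the number of tested genes in brackets. The members have their filled circles left of 0, though *GPI*, *ALDOA*, *PGK1* and *PYGL* lay right of it without lowess, and all 10 markers of satellite cells and myotubes lie left of 0.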

How the data were processed

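RNA of HMB-treated (Cy5) and control (Cy3) cells was compared on 4 arrays. The authors made the spot intensities and the lowess-normalised log10 ratios with Feature Extraction (10.10.1.1 per the deposited headers). The deposited processed intensities are background-subtracted and dye-normalised, and the deposited mean and background intensities were used for normexp. The deposited marks of 0 or 1 (other values) state whether a spot is well above background, non-uniform or outlying. The summary values the authors deposited for the series hold the same log10 ratios (maximum difference, 0).

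Log10 ratios were multiplied by 3.32 to log2 ratios. The 1417 control spots and the spots marked non-uniform or outlying (11, 17, 32 and 15 on arrays 1 to 4) were left out, and repeated spots of 1 probe were reduced to their mean. Testing required that Cy3 on all 4 arrays, or Cy5 on all 4, was well above background, with ratios from 3 or more arrays, and 27384 probes for 15614 gene names met this. limma 3.58.1 in R 4.3.3 (intercept only, lmFit and eBayes) tested each probe against 0, two-sided, *P* values were adjusted by the method of Benjamini and Hochberg across these 27384 probes, and 0.05 was the threshold. The procedure was tested on simulated data. Where several probes of a gene were tested, the brightest on average stands for it. Isoform differences were tested with an exact sign-flip permutation test over the 4 arrays. Accessions were matched to symbols through a RefSeq list of horse genes for 11439 of 43603 probes. Values were read in R with data.table (version 1.17.8), summarised with pandas 2.3.3 and numpy 2.4.6 in Python 3.11.15 and drawn with matplotlib 3.10.9.

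The members and lists were chosen with earlier results of these data known. The genes named are every member with a tested probe and, of each other list, up to 4 with the largest rises and up to 4 with the largest falls among the genes that passed and had ratios of 1 sign on the 4 arrays. Of these, 1 gene is not reported here. *SLC16A3*, *PKM2*, *PGM1*, *HIF1A*, *LDHC*, *PGD*, *PGLS*, *RPE*, *TALDO1* and the named cell markers lie outside that rule and were picked with their values in view. Alternatives tried were normexp with an offset of 50 and loess, median centring without lowess, a plain t-test, a limma prior that was robust and followed intensity, separate channels with and without the array as block, testing dim probes too, testing only probes bright in both channels, keeping the marked spots, the series' summary values, a minimum of 1.3-fold, the mean of a gene's probes, matching by accession, and leaving out each array in turn.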

Additional observations from a re-analysis of the deposited data

Results flagged for a closer look

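In 6 of 63 values checked, 1 array lay far from the other 3, where chance flags about 1 in 20. *HK1* had a log2 ratio of 0.43 on array 1, against -0.053, -0.053 and -0.046 on the others. *GPI* had a log2 ratio of -0.16 on array 1, against -0.31, -0.30 and -0.32 on the others. *PFKM* had a log2 ratio of -0.10 on array 1, against -0.29, -0.30 and -0.32 on the others. *GPD2* had a log2 ratio of -1.80 on array 1, against -1.02, -0.89 and -1.01 on the others. *MLXIPL* had a log2 ratio of 0.40 on array 2, against 0.68, 0.70 and 0.67 on the others. The median of the general isoforms had a log2 ratio of 0.30 on array 1, against -0.042, -0.036 and -0.035 on the others. For *GPD2* the HMB-treated channel was well above background on 0 of 4 arrays, so its ratios and their spread rest on signals near background.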

How the results depend on the processing

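The members called lower numbered 8. They numbered 2 without lowess, 0 by a plain t-test, 4 with separate channels and no block, 3 with no filter on dim probes, 3 with the minimum of 1.3-fold, and 2 to 10 when 1 array was left out, 2 without array 2 or 3. The members called higher, 0 as reported, numbered 1 with normexp and loess, 13 without lowess, 2 with the array as block, 1 with no filter on dim probes and 0 to 1 with 1 array left out. Without lowess *GPI* turned to 0.40, *ALDOA* to 0.82, *PGK1* to 0.60 and *PYGL* to 0.012, and *ALDOA* was 0.039 with normexp and loess. The median of the muscle isoforms went from -0.20 to -0.084, that of the general isoforms from 0.046 to 0.25, that of the other members from -0.12 to 0.43 and muscle minus general from -0.24 to -0.34 without lowess (each the mean of 4 array medians). With normexp and loess the median of the other members was 0.015, and without array 1 that of the general isoforms was -0.037 and that of the muscle isoforms -0.31. Of all genes called, 48.5% were higher as reported and 76.7% without lowess. Other pathway genes called higher, 10 as reported, numbered 2 by a plain t-test, 3 with separate channels and no block, 5 with no filter on dim probes, 5 with the minimum fold, 15 without lowess, 7 with normexp and loess, 12 with the array as block or with the mean of a gene's probes, and 2 to 7 with 1 array left out. Those called lower, also 10, numbered 6 without lowess, 1 by a plain t-test, 5 with separate channels and no block, 4 with no filter on dim probes and 6 to 9 with 1 array left out. The cause of these shifts was not tested. With separate channels the array as replicate block gave 9 called members and no block 4. Requiring both channels above background gave no value for *GYS1*, *PYGM*, *GPD1*, *GPD2*, *SLC2A11* and the *PYGM* pairs. With matching by accession 9 members were lower, *SLC16A3* being added. A plain t-test called 2.63% of all genes. The number of arrays limits the precision, and 3 of 33 members lay too close to background to be tested.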
